A study of Mus musculus with 15 samples.

Results

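Bone marrow monocytes of C57Bl/6 mice were compared before and after 24 h in culture with GM-CSF (granulocyte-macrophage colony-stimulating factor). Per the labels, the monocytes were enriched by negative selection and cultured with GM-CSF at 20 ng/ml, and 1 array was made at 0 h and 1 at 24 h. These are 2 of the 15 arrays of the series, taken by their titles, and a further array at 48 h is given beside them as a level. All 34945 probe sets annotated with 1 gene were used, which stand for 18194 genes. The study also profiled sorted marrow progenitors and bone marrow cultures, which are not compared here. The labels name no mutation, describe the mice as at steady state, and give neither the age nor the number of the mice, nor do they say whether cells of several mice were pooled. There was no arm kept for 24 h without GM-CSF, so the effect of the cytokine and that of the time in culture cannot be told apart.

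GM-CSF binds a receptor made of a specific alpha chain and a beta chain shared with other cytokines. The receptor activates the kinase JAK2 and the transcription factor STAT5, which switches on feedback inhibitors such as CIS and the SOCS proteins. The cytokine is widely used to grow dendritic cells and macrophages from marrow, and monocytes cultured with it take up antigen-presenting and tissue-remodelling roles. In the animal, monocytes leave the marrow through chemokine receptors, and the orphan nuclear receptor NR4A1 is needed for the patrolling subset.

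The arrays are 3′ expression arrays, and the values deposited are linear intensities. The median over all probe sets was 80.5 at 0 h, 77.7 at 24 h and 80.3 at 48 h, and the highest values were 24227, 23230.0 and 22066.8. Differences are log2(intensity at 24 h + 32) minus log2(intensity at 0 h + 32). A gene was counted, and is said to have risen or fallen, when it differed at least 4-fold on that scale and was brighter than the median of the array on which it was higher. At 4-fold this condition on brightness removed no gene. With 1 array at each time there is no spread between replicates, no standard error and no p-value. Pairs of arrays exist for the sorted progenitors, which are other cells: 0 genes differed 4-fold between the arrays of a progenitor group at the same added constant, and 0 to 4 genes did so when the constant was reduced in proportion to the lower median of those arrays. Where 3 intensities stand in a row they are in the order 0, 24 and 48 h, and a value in brackets after them is the log2 difference between 24 and 0 h.

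The labelled cell type was checked first. The labels state that over 90% of the cells carried CD11b and Ly6C after antibodies had removed cells with the dendritic cell antigen CD11c, the progenitor antigen CD117, the neutrophil antigen Ly6G, the T and NK cell antigens CD4, CD8a and DX5, and B220 and Ter119. Itgam, the CD11b gene, read 739, 1669 and 1528, and Ccr2, the chemokine receptor by which monocytes leave the marrow, read 10007, 8945 and 6609.9. Lyz2 and Csf1r, genes of lysozyme and of the M-CSF receptor, were bright throughout at 17593, 18756 and 17246 and 17455, 18097 and 17279; these 2 genes were picked for this check after their values were seen. Of the 21 measured monocyte identity genes 20 were above the array median at 0 h and 18 at 24 h. Between these times 0 of the 21 rose and 6 fell, as given below. Ly6c1 and Ly6c2 were not analysed here. Genes of the antigens used for removal were dim at 0 h, with Itgax (CD11c) at 59.3, Kit (CD117) at 7.48, Itga2 (DX5) at 24.6 and Cd4 at 1, while Cd8a read 167. CD11c+ cells were thus removed before the culture; the part of that step in the low starting value of Itgax was not tested.

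Over all genes, 728 of 18194 were counted, 345 higher at 24 h (1.90%) and 383 lower (2.11%). At 2-fold 1132 were higher (6.22%) and 1327 lower (7.29%). The median difference of all genes was 0.001. These shares are the background for each gene group, and a group near them stands out in neither direction. Only 11425 of the 18194 genes were above the median of either array and could be counted. Among such genes the shares are therefore higher than those given. Most cell type and pathway lists hold mainly such genes, for example all 26 measured interferon response genes.

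**Figure D1:**
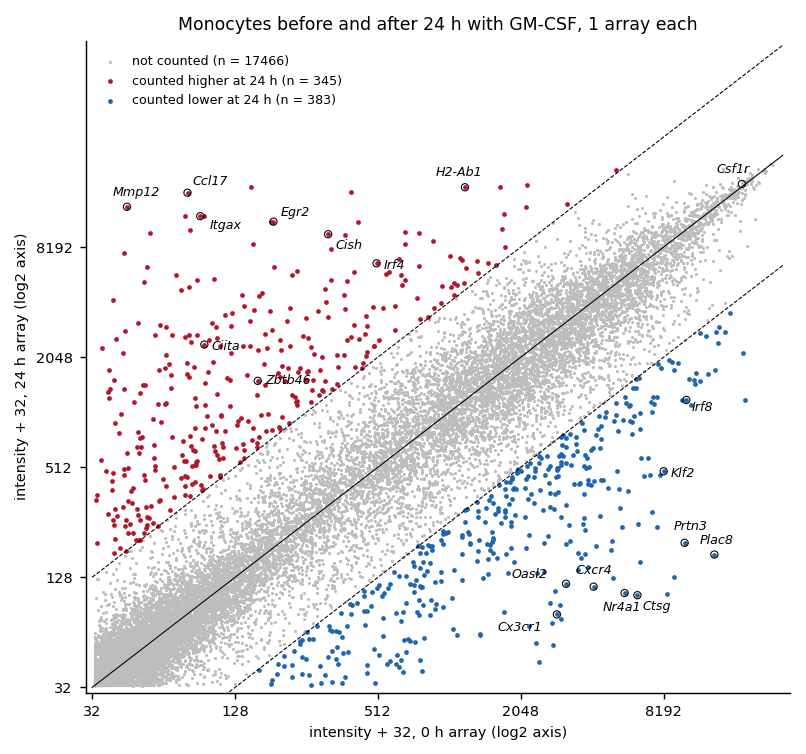
Intensity + 32 of each of 18194 genes on the 0 h array (x axis) and the 24 h array (y axis), both on log2 axes, 1 array each. Red points are the 345 genes counted higher and blue points the 383 counted lower, the solid line marks equality and the dashed lines a 4-fold difference; Mmp12, Ccl17 and Itgax lie at the upper left, and Nr4a1, Ctsg and Cx3cr1 at the lower right.

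The largest rise was that of Mmp12, the gene of macrophage elastase, which read 12.8, 13564 and 14573 with a log2 difference of 8.24. Ccl17, which encodes a chemokine that attracts CCR4+ T cells, read 48.7, 16201 and 16325 (7.65). Next came Cdh1, the E-cadherin gene, at 24.1, 9789 and 9762 (7.45). All 3 were below the array median at 0 h and among the bright genes at 24 and 48 h, so each rise is measured from a dim value and its size depends on the added 32.

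Cxcl3, a neutrophil-attracting chemokine gene, read 11.7, 7523 and 4849 (7.43), and Spint1, which encodes an inhibitor of serine proteases, read 46.5, 11999 and 10264 (7.26). Itgax, the integrin chain gene that defines CD11c+ cells, read 59.3, 12043 and 12541 (7.05). Mgl2, a macrophage galactose-type lectin gene, read 63.1, 12078 and 14571 (6.99), and the chemokine gene Pf4 50.3, 10082 and 8087 (6.94). Dcstamp, whose protein is needed for the fusion of osteoclasts and macrophages, read 20.8, 5232 and 6478 (6.64). Levels at 48 h were close to those at 24 h for Itgax and Cdh1, and Cxcl3 was lower at 48 h than at 24 h.

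Sema6d (6.87), Plet1 (6.86), Prr15 (6.75) and Enah (5.93) were also among the 20 largest rises, but other bright probe sets (above the array median) of these genes moved less. They went down to 0.95 for Sema6d and to 0.83 for Prr15. For Plet1, bright probe sets ranged from 0.29 to 6.86, and for Enah, which encodes a regulator of actin filaments, from 0.77 to 5.93. The list was completed by the adaptor gene Bcar3 (6.04), the myosin gene Myo1e (6.02), the transcription factor gene Creb5 (6.00), Plxdc2 (5.98), the ATP-gated channel gene P2rx5 (5.96), Basp1 (5.95) and the transcription factor gene Egr2 (5.92).

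The largest fall of a named gene was that of the beta-globin gene Hbb-b2, which read 8388, 71.6 and 3.15 (-6.34) and belongs to red cells and their precursors. Plac8, a gene strongly expressed in Ly6C-high monocytes, read 13358, 139 and 163 (-6.29). Ifitm6, of the interferon-induced transmembrane family, read 8981, 96.6 and 52.8 (-6.13). These genes were among the brightest on the 0 h array and close to the array median at 24 h.

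Nr4a1 fell from 5573 to 73.0 and read 54.2 at 48 h (-5.74). Cxcr4, the receptor that holds cells in the marrow, read 4118, 81.8 and 121 (-5.19), and Cx3cr1, the fractalkine receptor gene, 2874, 48.2 and 45.1 (-5.18). Thbd, the thrombomodulin gene, read 2735, 39.7 and 74.5 (-5.27). Hpgd, whose enzyme inactivates prostaglandins, read 2764, 22.6 and 42.4 (-5.68; bright probe sets from -5.68 to -1.18). Each of these 5 genes was also far lower at 48 h than at 0 h.

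The other large falls were in the granule genes Ctsg (-5.96), Prtn3 (-5.67) and Cd177 (-5.39), in Upb1 (-5.79), Rnf144a (-5.40), the mitochondrial nucleotide kinase gene Cmpk2 (-5.32), the Rap1 activator gene Rasgrp2 (-5.30), Cyp39a1 (-5.04), the glutamate receptor gene Gria3 (-5.00), Rdm1 (-4.87), the cytidine deaminase gene Apobec1 (-4.78) and the protease inhibitor gene Serpinb1a (-4.76). Of these, Rnf144a had a second bright probe set at -0.15.

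**Figure D2:**
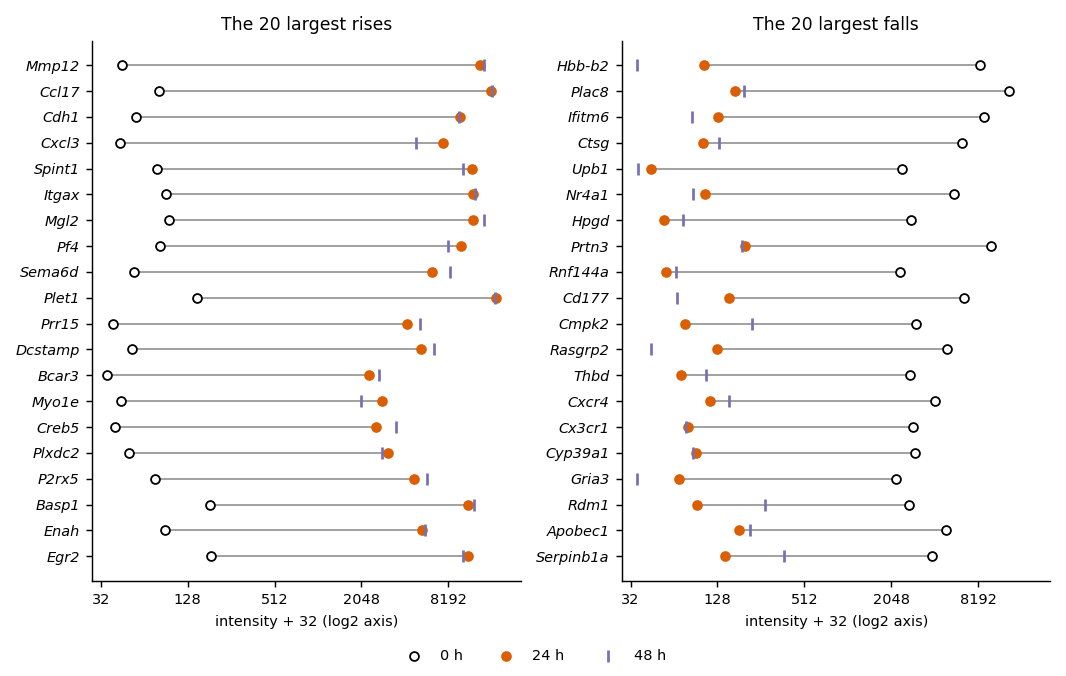
Intensity + 32 (x axis, log2) of the 20 named genes with the largest rises (left) and the 20 with the largest falls (right); open circles are the 0 h array, filled circles the 24 h array and bars the 48 h array. The rises start at intensities of 3.12 to 154 and reach 2278 to 17396 at 24 h, and the falls start at 2190.3 to 13358 and end at 12.0 to 166.

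The GM-CSF receptor chains were bright at every time. Of 11 measured genes of the receptor and its signalling 1 rose and 0 fell (median 0.17). Csf2ra, the alpha chain gene, read 10740.4, 10097 and 10860.3 (-0.09; other bright probe set -1.49). Csf2rb, the shared beta chain gene, read 8979, 18662 and 17147 (1.05; other bright probe set 3.15). Csf2rb2, which encodes the mouse beta chain specific for IL-3, was the gene that rose, at 2117, 13484 and 12362 (2.65). By these probe sets the alpha chain was at about the same intensity on the 3 arrays, and the beta chains were higher on the later 2. Jak2, the kinase gene of the receptor, read 2879, 9052 and 10514 (1.64), and Stat5a and Stat5b 438, 495 and 939 (0.17) and 4183, 1500.2 and 1997 (-1.46), all under 4-fold.

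Several feedback genes of STAT5 rose. Of 12 measured STAT5 targets and cytokine feedback genes 6 rose and 0 fell (median 1.87), against 1.90% of all genes rising. Cish, which encodes the feedback inhibitor CIS, read 284, 9592 and 8989 (4.93). Socs2, whose protein dampens growth factor signals, read 26.6, 2665 and 6439 (5.52), although its 5 bright probe sets ranged from 0.15 to 5.52. Socs3, an inhibitor of STAT3 signalling, read 1039, 5178 and 6388 (2.28; bright probe sets 0.94 to 2.36), and Socs1, an inhibitor of interferon and cytokine receptors, 8.91, 245 and 259.7 (2.76). Cish, Socs1, Socs2 and Socs3 were all higher on both later arrays than at 0 h.

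The D-type cyclin genes Ccnd2 and Ccnd1, which couple growth factor signals to the cell cycle, completed the 6 with 116, 3185 and 7548 (4.44) and 170.1, 1796 and 4139 (3.18). The list's other members stayed under 4-fold, between -1.80 for Osm, an IL-6 family cytokine gene, and 1.45 for the survival gene Bcl2l1; Osm was chosen after its value was seen. The sequence around the start of Cish is shown because it carries the pair of sites that STAT factors are known to bind. It runs from 120 bases before to 30 bases from the RefSeq start, chr9:107296539-107296688 of GRCm38.p6, plus strand, with capitals marking each match to TTCNNNGAA, searched on both strands; the matches begin at bases 1 and 12.
Cish: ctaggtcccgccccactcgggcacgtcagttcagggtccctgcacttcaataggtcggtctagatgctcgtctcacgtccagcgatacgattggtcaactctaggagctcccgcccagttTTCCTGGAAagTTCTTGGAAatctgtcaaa

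In the windows around gene starts (250 bases before, 50 from the start, RefSeq on GRCm38.p6), this motif was found in 8.3% of 32851 promoters, in 7.2% of those of genes on the array, in 7.47% of the 348 promoters of genes that rose and in 7.95% of the 365 of genes that fell. Of the 345 and 383 counted genes, 271 and 292 had a promoter in the table. In the STAT5 and feedback list it was found in 4 of 11 promoters of 7 genes, those of Cish, of Socs3 and, with 2 promoters, of Bcl6, whose intensity was 4639.8, 5184 and 5581 (0.16; named after its value was seen). The share among all genes that rose was therefore near that of all promoters.

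Immediate early genes split. These are genes switched on within minutes of a stimulus, also by the isolation of cells. Of 22 measured genes 3 rose and 7 fell (median -0.89). Besides Nr4a1, the falls were in Klf2, a factor that maintains quiescence and homing, at 8154, 455 and 279 (-4.07), in Rhob, a small GTPase gene, at 6569.8, 543 and 718 (-3.52), and in the AP-1 gene Fosb at 2506, 269 and 156 (-3.08). Ppp1r15a, a stress-response phosphatase subunit gene, fell by 2.97, Atf3 by 2.12 and Nr4a2 by 2.12, the last with bright probe sets from -2.12 to -0.54. Jun (-1.99; chosen after its value was seen) lay just inside the limit, and Fos itself, at 14054, 6104 and 6757 (-1.20), stayed under 4-fold.

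The genes of this group that rose were Egr2, a factor of macrophage and monocyte-derived cells, at 154, 11241 and 10376, Egr3 at 16.1, 1126 and 838 (4.59) and Nr4a3, a relative of Nr4a1, at 55.6, 496 and 6763 (2.59; 1.69 as the mean over its probe sets). Egr1 moved the same way but stayed just under 4-fold, at 2079, 7708 and 7036 (1.87). Nr4a3 was brightest at 48 h. Within the NR4A family the direction thus differed, with Nr4a1 and Nr4a2 lower and Nr4a3 higher at 24 h. Heat shock genes linked to cell handling moved with the falls: Hspa1a read 3794, 199.9 and 181 (-4.04) and Hspa1b 6992, 541 and 724 (-3.61), 2 falls and 1 rise among 22 measured chaperones. Their part in the result was not tested.

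**Figure D3:**
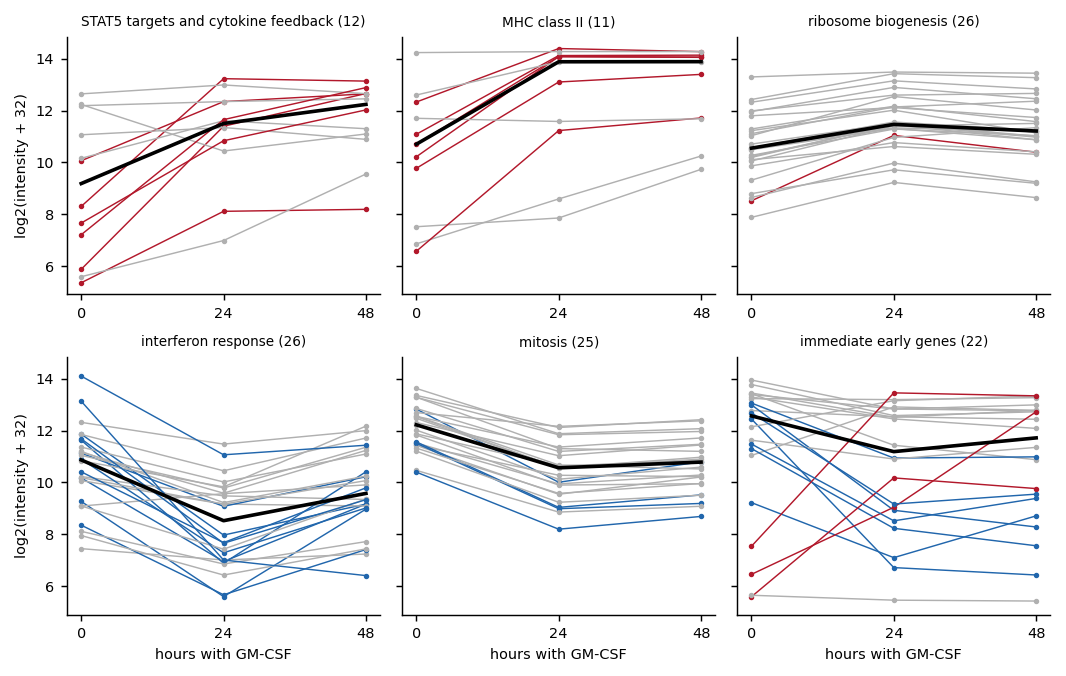
Level of each member of 6 gene lists as log2(intensity + 32) (y axis) at 0, 24 and 48 h with GM-CSF (x axis), 1 array at each time; lines in red rose, lines in blue fell, grey lines were not counted and the thick line is the list's median level. The median of MHC class II went from 10.7 to 13.89 between 0 and 24 h, that of mitosis from 12.2 to 10.6, and that of the interferon response from 10.9 to 8.53 with 9.58 at 48 h.

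Several monocyte identity genes fell. Of 21 measured genes 0 rose and 6 fell at 4-fold (median -0.78), beside 2.11% of all genes falling. At 2-fold 9 were lower and 1, Itgam (1.14), was higher; Vcan (0.98) and Fcgr1 (0.65) were higher by less. In addition to Nr4a1 and Cx3cr1, F13a1, the gene of a coagulation factor subunit abundant in monocytes, read 18068, 1169 and 3893 (-3.91). Irf8, a factor needed for monocyte and cDC1 development, read 10171, 1162 and 1791 (-3.10). The membrane protein gene Ms4a6c read 14827, 2775 and 1856 (-2.40), and Spn, which encodes CD43, 5667, 1115 and 1220.5 (-2.31). In such bulk samples fewer cells of a type and less RNA per cell cannot be told apart. The core myeloid genes Csf1r and Lyz2, picked after their values were seen, stayed level, with differences of 0.05 and 0.09. Ccr2 did so as well (-0.16). Csf1r and Lyz2 read 17246 to 18756 on arrays whose highest values were 24227, 23230.0 and 22066.8. Whether a change would show at such intensities was not tested.

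Genes of classical dendritic cells moved mostly upward. Of 20 measured core genes 7 rose and 2 fell (median 1.59). Zbtb46, a factor that marks classical dendritic cells, read 127.6, 1487 and 2155 (3.25), with 3 bright probe sets from -0.20 to 3.64. Irf4, a factor of cDC2 and of monocyte-derived cells, read 473, 6639 and 6248 (3.72; bright probe sets 0.86 to 3.72). P2ry10, a lysophospholipid receptor gene, read 67.9, 2519 and 6688 (4.67), Kmo, an enzyme gene of tryptophan breakdown, 227, 1696 and 2766 (2.74) and Septin3 12.7, 579.9 and 2919.7 (3.78).

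Kit was counted as a rise but stayed dim, at 7.48, 141 and 139.6 (2.14, and 0.85 as the mean over its probe sets). Flt3, the receptor that drives classical dendritic cell development, fell from a modest level to below the array median, at 297, 32.9 and 70.5 (-2.34). Btla, an inhibitory receptor gene, read 3926, 484 and 685 (-2.94). Ccr7, which guides mature dendritic cells to lymph nodes, was under 4-fold at 24 h and much brighter on the 48 h array, at 16.9, 121 and 2977 (1.65; chosen after its value was seen). The defining cDC1 gene Xcr1, chosen likewise, stayed below the array median at 37.0, 38.4 and 15.1.

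Genes of antigen presentation by MHC class II rose in part. Of 11 measured genes 6 rose and 0 fell (median 2.06). Ciita, the master regulator of the pathway, read 63.0, 2368 and 3333 (4.66). The chain genes H2-Ab1, H2-Eb1 and H2-Aa read 1159, 17352 and 17127 (3.87), 1635, 17319.7 and 16999 (3.38) and 5121, 21528 and 19818 (2.06). For Ciita the bright probe sets ranged from 1.25 to 4.66, and for H2-Aa from 1.65 to 4.42. Cd74, the invariant chain gene, read 2142, 17841 and 18034 (3.04), and H2-DMb2, a chain of the peptide-loading DM molecule, 842, 8775 and 10765 (3.33). All 5 of these structural genes were already well above the array median at 0 h. The 5 members that were not counted, named for that reason, were H2-Ob (1.74), H2-DMa (1.28) and H2-Oa (0.34), chains of DO and DM molecules, Ctss (0.04), a protease gene that cleaves the invariant chain, and Marchf1 (-0.12), whose ubiquitin ligase removes class II from the surface. Ctss read 19313, 19839 and 19853, near the highest values of these arrays. Whether a change would show at such intensities was not tested.

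No class I gene was counted. Of 11 measured class I genes 0 rose and 0 fell at 4-fold or at 2-fold, and the differences ran from -0.71 to 0.60. In so short a list 0 is near the shares of all genes at 4-fold, 1.90% higher and 2.11% lower. B2m, the light chain gene, read 15131, 12285 and 15479 (-0.30), and the peptide transporter genes Tap1 and Tap2 read 2778, 1996 and 3632 (-0.47) and 1639, 2494 and 4252 (0.60).

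Of 13 measured costimulation and maturation genes 5 rose and 0 fell (median 1.65; 3 rises as the mean over probe sets, without Cd80 and Fscn1). Pdcd1lg2 and Cd274, the PD-L2 and PD-L1 genes that restrain T cells, read 29.7, 3039.5 and 5843 (5.64) and 291, 5344 and 5564 (4.06). Icam1, an adhesion ligand gene, read 1304, 6814 and 6771 (2.36), and Cd80, a CD28 ligand gene, 103, 919.9 and 2163 (2.82; bright probe sets 0.99 to 2.82). Fscn1, an actin-bundling gene of mature dendritic cells, read 9.51, 758 and 10480.3 (4.25), with another bright probe set at 0.15.

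Cd86 and Cd40, which encode the other CD28 ligand and the receptor for CD40L, stayed under 2-fold between 0 and 24 h, with 1917, 2113 and 5106 (0.14) and 922, 1269 and 2672 (0.45). Fscn1 and Cd86 read higher on the 48 h array than at 24 h. The inhibitory ligands were therefore among the members that rose and Cd86 and Cd40 were not.

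Chemokine genes mostly moved upward. Of 20 measured genes 9 rose and 1 fell (median 1.21). Besides Ccl17, Cxcl3 and Pf4, the rises were in Ccl22, a second CCR4 ligand gene, at 33.4, 2080.2 and 13548 (5.01), in Cxcl16, whose membrane-bound product binds CXCR6, at 47.1, 2592 and 4276 (5.05), and in Ppbp, a platelet chemokine gene, at 84.2, 3439.7 and 2806 (4.90). Of the CCR2 ligand genes, Ccl12, Ccl7 and Ccl8 rose by 3.31, 3.13 and 2.46 to intensities of 354, 806 and 808.

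Ccl2, the main CCR2 ligand gene, read 849, 1978 and 1915 (1.19), Ccl4 2598, 3541 and 4264 (0.44) and Ccl3 9005, 3178 and 3414 (-1.49), all under 4-fold. The fall was that of Cxcl9, an interferon-induced chemokine gene, at 212, 5.65 and 2.78 (-2.70; -1.63 as the mean over its probe sets). Of the 2 CCR4 ligand genes Ccl17 was at its high level by 24 h, and Ccl22 was still brighter at 48 h.

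Chemokine and attractant receptors moved both ways, 2 of 13 higher and 2 lower (median -0.11). C3ar1, the receptor for the complement fragment C3a, read 32.9, 1758 and 1768 (4.79), and Cxcr2, a receptor for the product of Cxcl3, 12.4, 232 and 145 (2.57), a low level. The falls were Cxcr4 and Cx3cr1. Ccr1, a receptor of inflammatory chemokines, read 3080.4, 5189 and 4156 (0.75).

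Among 18 measured integrin and adhesion genes 6 rose and 3 fell (median 0.33). The integrin subunits went opposite ways. Itgax rose, Itgae, the CD103 chain gene whose partner binds E-cadherin, read 202, 1094 and 5487 (2.27), and the tetraspanin genes Cd9 and Cd81 read 274, 4792 and 5842 (3.98) and 392, 2539 and 2697 (2.60). Vcam1, an adhesion ligand gene, read 7.04, 231 and 514 (2.75; other bright probe set 0.37, 1.07 as the mean over its probe sets). Itga4 and Itgb7, which pair as the gut-homing integrin, fell to 1085 from 5870.2 (-2.40) and to 1159 from 9706 (-3.03), and Itgb3 read 756, 7.42 and 16.6 (-4.32). Itgal, the LFA-1 alpha chain gene, read 4413, 4909 and 5247 (0.15).

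Among 15 genes of matrix proteases and their inhibitors 6 rose and 0 fell (median 1.31). After Mmp12 came Mmp14, a membrane-bound collagenase gene, at 50.03, 4939 and 4519.7 (5.92), and Serpinb2, which encodes an inhibitor of plasminogen activators, at 7.57, 1513 and 2549 (5.29). Adam8, a membrane metalloprotease gene, read 391, 11203 and 11277 (4.73), and Timp1, a metalloprotease inhibitor gene, 55.3, 517 and 699 (2.65). Plau, the urokinase gene, read 15.6, 360.0 and 351 (3.04), but its brighter probe set on the monocyte arrays differed by 0.17. Mmp8 read 2099, 5254 and 2916 (1.31) and Mmp9 stayed near the array median at 82.0, 74.9 and 161, so the rise was not shared by the neutrophil collagenase and gelatinase genes at 4-fold.

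**Figure D4:**
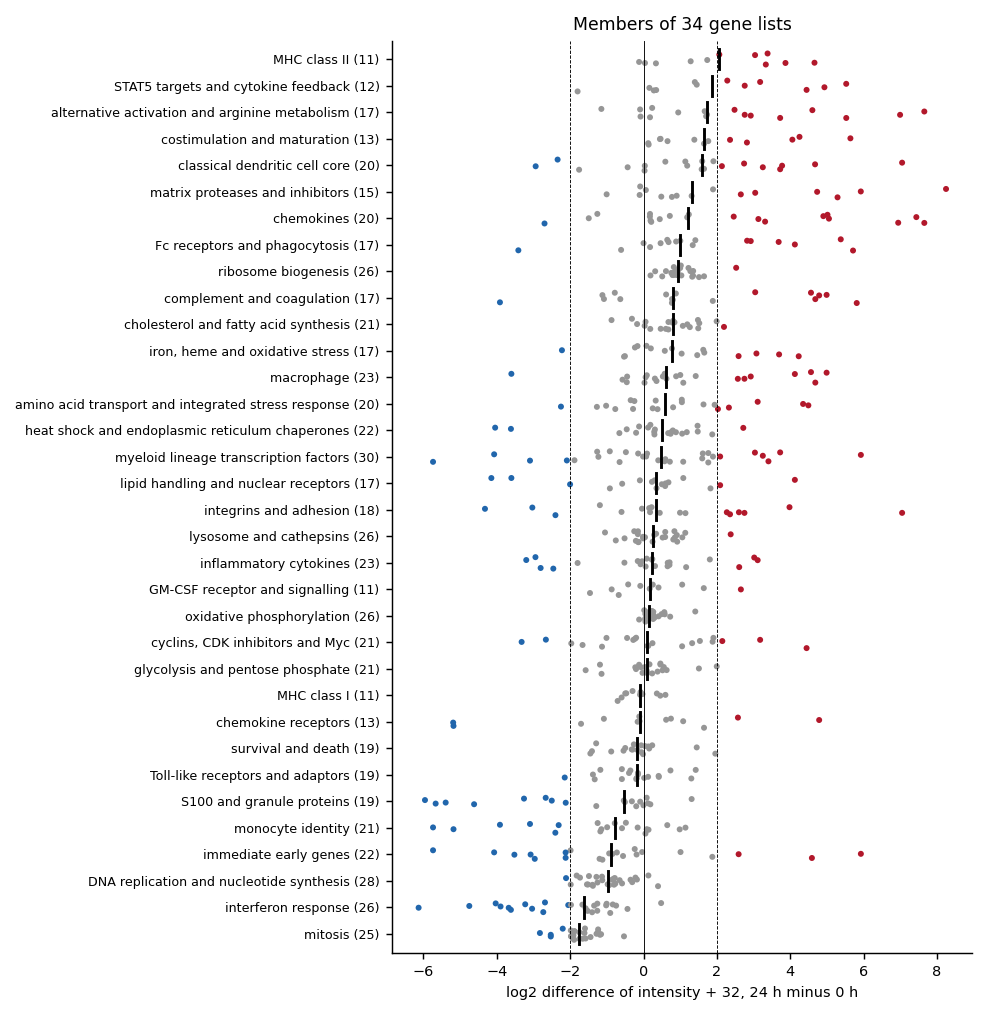
Log2 difference of intensity + 32, 24 h minus 0 h (x axis), of each measured member of 34 lists of cell types and pathways, with the number of members in brackets; red points rose, blue points fell, grey points were not counted, bars are list medians and dashed lines mark 4-fold. MHC class II has the highest median (2.06) and mitosis the lowest (-1.75).

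Among 17 genes of alternative activation and arginine metabolism 8 rose and 0 fell (median 1.73). Ccl17 and Irf4 belong to this list as well. Retnla, a resistin-like gene of IL-4-treated macrophages, was high at 24 h and low again at 48 h, with 5.83, 1709.6 and 144 (5.52). Mrc1, the mannose receptor gene, read 374, 3047 and 4947 (2.92), and Slc7a2, an arginine transporter gene, 75.9, 2587 and 2264 (4.60). Arg1, the arginase gene, was counted but stayed low at 11.9, 213 and 85.9 (2.48). Chil3, another gene of this state, was bright at 0 h and lower later, at 18336, 8248 and 2691 (-1.15).

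Of 17 complement and coagulation genes 6 rose and 1 fell (median 0.80). The genes of the C1q chains moved together, C1qa at 11.4, 1347 and 1635 (4.99), C1qb at 48.5, 1871 and 2897 (4.56) and C1qc at 19.0, 1276 and 2353 (4.68). F7, the gene of coagulation factor VII, read 120.5, 8524 and 10142 (5.81), and F13a1 was the gene that fell. Each C1q gene was below the array median at 0 h and higher on both later arrays.

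Of 23 measured macrophage genes 7 rose and 1 fell (median 0.62). In addition to the C1q genes, Vcam1 and Mrc1, Cd36, a scavenger receptor and fatty acid transporter gene, read 91.2, 2116 and 6912 (4.12), and Gpnmb, a glycoprotein gene of lipid-laden macrophages, 261, 1708 and 3673 (2.57). Apoe, the apolipoprotein E gene, fell, at 4754, 362 and 139 (-3.60). Mertk, a receptor for dying cells, stayed low at 37.5, 107 and 309, and Cd68 and Adgre1, the latter the F4/80 gene, read 6741, 10407 and 8119 (0.62) and 7100.3, 7386 and 7471 (0.06; named after its value was seen).

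Among 17 lipid handling genes 2 rose and 3 fell (median 0.35). Pparg, the lipid-sensing nuclear receptor that GM-CSF induces in alveolar macrophages, read 20.9, 193 and 124 (2.09), a low level. Its known target gene Cd36 rose, whereas Fabp4, another target, read 69.4, 183 and 181 (1.08). Apoc2, next to Apoe in the same gene cluster, also fell, at 2365, 103 and 147 (-4.15), and Lpin1 was at the 4-fold limit with 1187, 272 and 1267 (-2.0). Of 21 cholesterol and fatty acid synthesis genes 1 rose and 0 fell at 4-fold, and 8 rose and 0 fell at 2-fold (median 0.79). Sqle, the squalene epoxidase gene, read 1072, 5016 and 5884 (2.19).

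Of 17 receptors and adaptors for particles and antibodies 6 rose and 1 fell (median 1.0). Axl, a receptor kinase gene for dying cells, read 72.3, 5424 and 5403 (5.71), and Stab1, a scavenger receptor gene, 19.6, 630.3 and 790.2 (3.68). The lectin genes Clec4n, which encodes dectin-2, and Clec4d read 362, 16303 and 15794 (5.37) and 1714, 12318 and 9818 (2.82). Fcgr4, an activating Fc receptor gene of patrolling monocytes, fell, at 813, 47.4 and 48.8 (-3.41). The other Fc receptors Fcgr1, Fcgr2b and Fcgr3 were higher by 0.65, 1.41 and 0.68, which was under 4-fold. Fcgr2b, the inhibitory receptor gene, was the 1 past 2-fold, at 5973, 15945 and 13790.0 (bright probe sets 1.41 to 2.10).

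Sensors of microbes were counted at about the background shares, which were 1.90% of all genes higher and 2.11% lower. Of 19 measured Toll-like receptor and adaptor genes 0 rose and 1 fell (median -0.19), the fall being Tlr7, a sensor of single-stranded RNA, at 814, 159 and 136 (-2.15). At 2-fold 2 of the 19 were higher and 4 lower, beside 6.22% and 7.29% of all genes. Tlr2 read 4898, 6548 and 5644 (0.42). Among 23 inflammatory cytokine and NF-kB feedback genes 3 rose and 4 fell (median 0.23). Il1r2 and Il1rn, a decoy receptor and a receptor antagonist that both block IL-1, read 236, 2279.7 and 7123 (3.11) and 312, 2064 and 2343 (2.61), and Il6 rose to a modest level, at 21.7, 402 and 198 (3.02).

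The falls in that list were Il18 at 1451, 129.8 and 879 (-3.20), Il15 at 757, 80.9 and 365 (-2.81), the NF-kB regulator gene Nfkbiz at 5974, 747 and 847 (-2.95) and the prostaglandin synthase gene Ptgs2 at 428, 51.7 and 40.2 (-2.46), whose other bright probe set differed by 0.94. Il1b, the IL-1 beta gene, read 477, 799 and 950.3 (0.71) and Tnf 889, 3191 and 2837 (1.81). Il15 and Il18 were brighter again on the 48 h array.

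Many interferon response genes fell. These genes are switched on by interferons, and many restrict viruses. Of 26 measured genes 0 rose and 11 fell at 4-fold, and 21 fell at 2-fold (median -1.62), beside 2.11% and 7.29% of all genes. Irf7, the amplifier of interferon production, read 3705, 219 and 542 (-3.90). The antiviral genes Oasl2, Ifit1 and Rsad2 read 3143, 86.0 and 1332 (-4.75), 585, 16.3 and 470.0 (-3.67) and 1882, 124 and 486 (-3.62). Ifitm3, which blocks viral entry, read 17619, 2117 and 2744 (-3.04). Apart from Ifitm6, which read 52.8 at 48 h, each of the 11 was brighter on the 48 h array than at 24 h.

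The remaining falls were Ifi204 (-4.03), Ifit2 (-3.23), Oas3 (-2.69), Mx1 (-2.05; -1.96 after quantile normalization) and Xaf1 (-2.73), the last with another bright probe set at 0.48. The sum of the 26 intensities was 68956 at 0 h, 14731 at 24 h and 33443 at 48 h. Ifit1 is shown because its promoter holds 2 copies of the element that IRF factors bind. The stretch covers 120 bases before to 30 bases from the RefSeq start, chr19:34640769-34640918 of GRCm38.p6, plus strand; capitals mark matches to GAAA, any 2 bases and GAAA again, searched on both strands and here read on the opposite strand, beginning at bases -104 and -85.
Ifit1: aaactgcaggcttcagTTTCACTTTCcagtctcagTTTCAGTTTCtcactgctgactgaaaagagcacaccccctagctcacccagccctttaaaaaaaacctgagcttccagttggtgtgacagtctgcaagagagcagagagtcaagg

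That motif was found in 13 of the 25 promoters of the 21 interferon response genes in the table (52.0%), in 3.44% of all 32851 promoters, in 3.04% of those of genes on the array, in 7.12% of promoters of genes that fell and in 2.01% of those of genes that rose. The holders in this list that fell were Ifit1, Rsad2, Ifitm3 and Oas3, and most holders stayed under 4-fold. All of those were lower at 24 h except Bst2, an antiviral tether gene, which read 513, 727 and 928 (0.48).

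Genes of cell division were lower at 24 h. Of 25 measured mitosis genes 0 rose and 4 fell at 4-fold, and 24 fell at 2-fold (median -1.75), and the differences of all 25 were below 0. Mki67, the proliferation marker gene, read 12662, 3746 and 4294 (-1.75), Top2a, a DNA-untangling enzyme gene, 9970.4, 3642 and 3980.2 (-1.44; other bright probe set -2.84), and Cdc20, an activator of mitotic exit, 9999, 2505 and 2324 (-1.98). Ccnb2, a mitotic cyclin gene, read 7273, 999 and 1749 (-2.82), the motor gene Kif11 2897, 476 and 553 (-2.53) and the kinetochore genes Cenpe and Cenpf 1319.8, 262 and 381 (-2.20) and 3003, 494 and 703 (-2.53; other bright probe set -0.32). All 25 stayed above the array median at 24 h, and Mki67, at 3746, far above it.

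DNA replication genes were lower by a smaller median. Of 28 measured genes 0 rose and 1 fell at 4-fold, and 13 fell at 2-fold (median -0.96). Tk1, a thymidine kinase gene, was the 1, at 2449, 542 and 539.9 (-2.11). The replicative helicase genes Mcm2, Mcm3 and Mcm4 read 5612, 2919.8 and 2521 (-0.94), 3544, 2003 and 2133 (-0.81) and 4645, 3083 and 3151 (-0.59). Myb, a progenitor factor gene, read 1591, 130.4 and 157 (-3.32), and the granule genes of immature myeloid cells fell on the same arrays; the part of such cells in the lower cell division genes was not tested.

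Ccnb2 and Cdc20 are shown because promoters of mitosis genes commonly carry CCAAT boxes and a CHR element (TTTGAA). Both stretches run from 120 bases before to 30 bases from the RefSeq start on the minus strand of GRCm38.p6, chr9:70421525-70421674 for Ccnb2 and chr4:118437314-118437463 for Cdc20. Capitals mark CCAAT and TTTGAA, searched on both strands; in Ccnb2 the CHR begins at base 5, and in Cdc20 at base -18.
Ccnb2: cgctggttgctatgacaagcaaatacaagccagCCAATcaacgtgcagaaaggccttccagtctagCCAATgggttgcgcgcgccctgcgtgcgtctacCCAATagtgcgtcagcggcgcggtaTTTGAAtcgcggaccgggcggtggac
Cdc20: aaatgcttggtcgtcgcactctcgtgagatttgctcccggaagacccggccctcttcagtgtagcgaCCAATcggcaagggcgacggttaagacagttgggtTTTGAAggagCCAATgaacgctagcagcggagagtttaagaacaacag

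TTTGAA was found in 16 of 22 promoters of the 21 mitosis genes in the table (72.7%), in 17.9% of all promoters and in 13.4% of the 18009 promoters of genes on the array. CCAAT was found in 18 of 22 (81.8%), 37.4% and 37.4%. Among promoters of genes that fell, the shares were 19.5% for TTTGAA and 41.1% for CCAAT, and among those of genes that rose 11.2% and 32.5%. TTTGGCGC, a form of the E2F site, was found in 5 of 29 promoters of 24 DNA replication genes, in 0.51% of all promoters and in 0.79% of those of genes on the array. A match describes the letters in the window and does not show that a factor binds there.

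Regulators of cycle entry moved both ways. Among 21 cyclin, CDK inhibitor and Myc genes 3 rose and 2 fell (median 0.11). Besides Ccnd1 and Ccnd2, Myc, a driver of cell growth, read 378, 1783 and 1403 (2.15). Cdkn2d, an inhibitor of CDK4 and CDK6, fell, at 3139, 285 and 438 (-3.32), and so did the cyclin G2 gene Ccng2, at 6128, 941 and 2698 (-2.66; other bright probe set -0.77). Ccnd3, the third D-type cyclin gene, read 7268, 6179 and 6462 (-0.23; bright probe sets -3.49 to -0.07).

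Ribosome biogenesis genes, many of them known Myc targets, were higher at 24 h in all 26 cases, by 0.19 to 2.52, though 1 rose at 4-fold and 10 at 2-fold (median 0.93; 6.22% of all genes rose 2-fold). Rrp9, a factor of small subunit processing, read 335, 2077 and 1313 (2.52). The snoRNP protein genes Nop56, Nop58 and Fbl read 3535, 4411 and 3371 (0.32), 1639, 2874 and 2033 (0.80) and 5481, 10971 and 9858 (1.0). CACGTG, the E-box that Myc binds, was found in 4 of 23 promoters of 21 of these genes. It was found in 7.15% of all promoters, 8.74% of those of genes on the array, 11.5% of those of genes that rose and 9.04% of those of genes that fell.

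Of 20 genes of amino acid transport and the integrated stress response 5 rose and 1 fell (median 0.59). Slc7a11, the cystine transporter gene, read 7.87, 865 and 1102 (4.49), Slc7a5, a transporter gene of large neutral amino acids, 148, 3628 and 2495 (4.35), and Asns, the asparagine synthetase gene, 162, 1644 and 1708 (3.11). Sesn2 and Chac1, stress-induced genes of nutrient and glutathione control, rose by 2.33 and 2.03. The ATF4 pathway genes Atf4 and Ddit3 themselves read 10180.1, 7976 and 6559.8 (-0.35) and 1645, 662 and 783 (-1.27; other bright probe set -3.35), and Pck2, a mitochondrial enzyme gene, fell by 2.25.

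Some antioxidant genes rose. Of 17 genes of iron, heme and oxidative stress 4 rose and 1 fell (median 0.78). The rises were in the known NRF2 targets Nqo1 at 28.4, 1101 and 643 (4.23), Srxn1 at 165, 2519 and 2117 (3.69) and Gclm at 728, 6379 and 3930.1 (3.08), and in the biliverdin reductase gene Blvrb at 1121, 6913 and 7799.6 (2.59). Hmox1, another NRF2 target, read 633, 533 and 624 (-0.23). Hp, the haptoglobin gene, fell, at 13911, 2952 and 858 (-2.22). In the chaperone list Pdia4, which folds proteins in the endoplasmic reticulum, was the gene that rose, at 225, 1657 and 607 (2.72).

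Several housekeeping groups had few or no genes counted at 4-fold, near the shares of all genes (1.90% higher and 2.11% lower). Of 26 oxidative phosphorylation genes 0 were counted at 4-fold and 1 rose at 2-fold, with a median of 0.16 and differences from -0.12 to 1.41. Of 21 glycolysis and pentose phosphate genes 0 were counted at 4-fold, and 2 were higher and 3 lower at 2-fold (median 0.10). The glucose transporter gene Slc2a1 read 1709, 4922 and 4557 (1.51). Of 19 survival and death genes 0 were counted at 4-fold, and 2 were higher and 3 lower at 2-fold (median -0.17). Bcl2 read 1059, 4202 and 4107 (1.96, with bright probe sets from -0.49 to 2.13). Of 26 lysosome and cathepsin genes 1 rose and 0 fell (median 0.27), the proton pump subunit gene Atp6v0d2 at 19.1, 233 and 636 (2.37); Ctsb and Ctsd, protease genes of this organelle, read 14767, 13258 and 13793 (bright probe sets -3.46 to 0.22) and 5933, 8952 and 10119.7.

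Of 30 transcription factor genes of the myeloid lineage 6 rose and 4 fell (median 0.49). Besides Egr2, Irf4, Zbtb46 and Pparg, the rises were Id3, an inhibitor of E proteins, at 520.3, 5814 and 5479.8 (3.40), and Bhlhe40, a regulator of cytokine production and proliferation, at 631, 5407 and 4938 (3.04). Nfil3, a factor of cDC1 development, was among the falls with 3279.5, 746 and 1404 (-2.09), beside Irf8, Klf2 and Nr4a1. Spi1, the PU.1 gene, read 3868, 5117 and 4624 (0.40), Cebpa 2135, 2244 and 2274 (0.07) and Cebpb 7339, 5247 and 2146 (-0.48). The IRF pair thus moved apart, with Irf4 higher and Irf8 lower at 24 h than at 0 h.

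Several granule protein genes fell. Of 19 S100 and granule genes 0 rose and 8 fell (median -0.54). Primary granule genes are made by granulocyte-macrophage progenitors and promonocytes: Ctsg read 6315, 70.2 and 98.8 (-5.96), Prtn3 10005, 166 and 156 (-5.67), Mpo 4935, 170.2 and 277 (-4.62) and Elane 1791, 289.8 and 56.9 (-2.50). S100a8 and S100a9, which encode calprotectin, read 10660.1, 1086 and 1465 (-3.26) and 4015, 605 and 895 (-2.67), and Lcn2 fell by 2.12. S100a4, abundant in monocytes, read 13688, 14529 and 13473 (0.09).

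Markers of other cells were read over whole lists. Of 11 neutrophil genes 1 rose (Cxcr2) and 3 fell. The number above the array median was 9 at 0 h and 9 at 24 h, not all of them the same genes. The summed intensity of the 11 was 29454 at 0 h, 9415 at 24 h and 8138 at 48 h. Cd177 carried part of this (6467, 123 and 35.3), whereas the secondary granule gene Camp read 479, 177 and 243 (-1.29) and Mmp8 was higher at 24 h. The other falls were S100a8 and S100a9, which monocytes also make. The part of neutrophils in the granule result was not tested.

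Of 12 early progenitor genes 1 rose and 2 fell, with a sum of 3097, 1543 and 2200.2; Cd34 read 186, 426 and 914 (1.07), Meis1 281, 69.8 and 63.0 (-1.62), and Kit, on which cells were removed, 7.48 at 0 h. Of 8 erythroid genes 0 rose and 1 fell at 4-fold, and 1 was higher and 4 lower at 2-fold (median -1.23; sum 2353, 2407 and 5832). The beta-globin gene Hbb-b2, which fell to 71.6, is not among the 8 or in their sum, and the alpha-globin gene Hba-a1 read 921, 1970.4 and 1492 (1.07); Slc4a1, the band 3 gene, read 429, 6.15 and 8.34 (-3.60) and Klf1 132, 26.7 and 35.7. The sum at 48 h was led by Car2 at 4038.

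Of 11 B cell genes 1 rose and 1 fell: Cd79b read 700.3, 25.0 and 20.0 (-3.68), while Cd79a stayed below the array median at 39.8, 44.5 and 37.3, and Blnk, an adaptor gene also used by macrophages, read 79.3, 945 and 1965 (3.13). Outside the list, and chosen after its value was seen, the immunoglobulin heavy chain gene Ighm fell from a bright level, at 7636, 209.8 and 73.0 (-4.99; bright probe sets -4.99 to 0.08). The part of B lineage cells in the other falls was not tested. Of 9 T cell genes 1 rose and 0 fell, Il7r at 164, 818 and 4602 (2.12), with Cd3e at 13.1, 6.18 and 2.26 and Cd3g at 37.1, 39.0 and 65.2. Ncam1, an adhesion gene used as an NK cell marker in man and outside the lists, also chosen after its value was seen, read 504, 29.4 and 37.0 (-3.13; another bright probe set -0.55). Of 8 NK cell genes and 11 stromal and endothelial genes 0 were counted, and the same held for 10 plasmacytoid and 10 mast cell, basophil and eosinophil genes. Of 8 megakaryocyte and platelet genes 2 rose, Pf4 and Ppbp (sum of the 8 genes 338, 13743 and 11412), while the platelet receptor genes Itga2b, Gp1bb and Gp9 read 47.0, 83.8 and 93.8, 45.8, 41.6 and 59.4 and 3.99, 6.03 and 1. Itga2b, Gp1bb and Gp9 were not counted, and Gp9 was chosen after its value was seen. The part of platelets or megakaryocytes in the rise of the 2 chemokine genes was not tested.

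**Figure D5:**
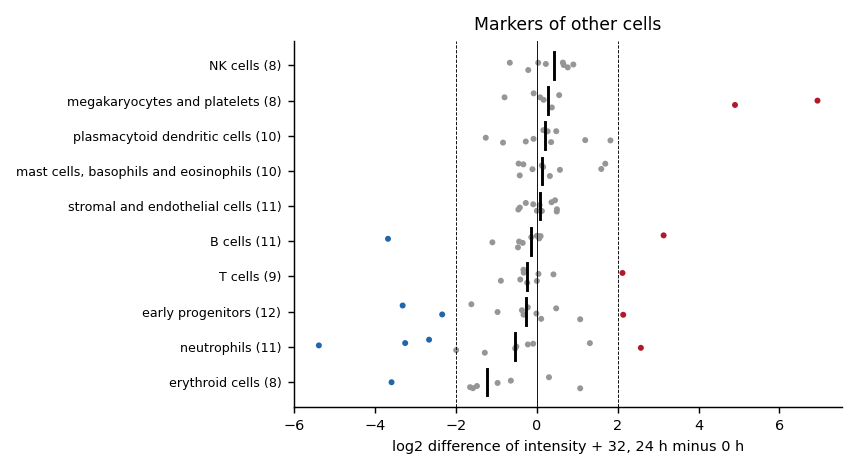
Log2 difference of intensity + 32, 24 h minus 0 h (x axis), of the measured markers of 10 other cell types, with the number of members in brackets; red points rose, blue points fell, grey points were not counted, bars are medians and dashed lines mark 4-fold. The 2 red platelet points are Ppbp (4.90) and Pf4 (6.94), and the lowest neutrophil point is Cd177 (-5.39).

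Different probe sets of a gene gave a check within the arrays, although they share the same RNA. Of the 728 counted genes 359 had 1 probe set, and 292 had several bright ones. In 109 of these 292 at least 1 bright probe set moved less than 2-fold in the direction of the call, and in 2, Slc15a2 and Trp53inp2, 1 moved 2-fold the other way. Where this held for a gene described here, the range or the mean of its probe sets stands beside its value.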

How the data were processed

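RNA of monocytes taken at 0, 24 and 48 h was measured on 1 expression array each. The authors deposited 1 linear intensity per probe set and array; their background correction, summarization and scaling are not given in the sources used here, and the precision is limited by the 1 array at each time. The annotation table gives 1 gene for 34945 of the 45037 probe sets, several genes for 932, and leaves 9160 unnamed. Each of 18194 genes (by Entrez ID) was represented by the probe set with the highest mean over the 15 arrays, and 18032 symbols were updated from RefSeq; 9185 genes had 1 probe set.

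Differences were taken on log2(intensity + 32) with Python 3.11.15, pandas 2.3.3 and numpy 2.4.6, and drawn with matplotlib 3.10.9. The counting was tested on simulated data, with changes well past the threshold planted in bright genes only. That checks the working of the count and not its accuracy for dim genes or for changes near the threshold. Named by rule were the 20 largest rises and the 20 largest falls (leaving out clone, predicted, sex-linked and antigen receptor genes), each counted member of 44 lists, the first 3 members of every list, and Itgax, Mmp12, Cish and Nr4a1. Adgre1, Bcl6, Car2, Ccr7, Cd4, Cd8a, Csf1r, Ctss, Gp9, H2-DMa, H2-Oa, H2-Ob, Ighm, Itga2, Jak2, Jun, Klf1, Lyz2, Marchf1, Ncam1, Osm, Spi1, Stat5a, Stat5b, Tnf, Vcan and Xcr1 are outside it, chosen after their values were seen. The genes and lists were chosen with earlier results of these data known. Of 756 list symbols 691 were measured. Alternatives were other added constants, thresholds, brightness limits, probe set choices and scalings.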

Additional observations from a re-analysis of the deposited data

Results flagged for a closer look

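Probe sets that stand for no gene or for several genes were left out of every comparison. Of these 10092 probe sets 245 differed at least 4-fold between 24 and 0 h with the higher value above the array median, 51 higher and 194 lower at 24 h. They are given because they lie outside the main measurement; no gene is named from them.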

How the results depend on the processing

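At a 2-fold threshold 1132 genes were higher and 1327 lower, against 345 and 383 at 4-fold. Under the other alternatives the counts ran from 259 to 395 higher and from 303 to 430 lower, within 1.5 times. The 174 genes that were named by rule and counted all kept their direction. Genes named but not counted were not checked for this. For a counted gene, another constant cannot reverse the direction, and the scalings shifted values too little to do so. Only another choice of probe set could have reversed one. The last alternative, which asked every bright probe set to move 2-fold the same way (294 and 325), was chosen after seeing the data. The array medians differed by -0.0364 log2. Equal medians gave 356 higher and 370 lower, with Lpin1 at -1.97, and quantile normalization 369 and 358, so that more genes were higher than lower, the reverse of 345 and 383. With 64 added, Nr4a2, Flt3, Kit, Cxcl9, Cxcr2, Arg1, Pparg, Lpin1, Atp6v0d2, Tlr7, Mx1, Chac1 and Il7r no longer reached 4-fold. As the mean over probe sets, Nr4a2 (-1.22), Ptgs2 (-1.26), Xaf1 (-0.80), Plau (1.07) and Lpin1 (-1.83) did not, besides the genes given with such a value in the results. List medians kept their sign except those of early progenitors (-0.39 to 0.02) and stromal cells (-0.09 to 0.10). No paired analysis was possible because each time has 1 array. Signal limits dim genes: below the array median a difference depends on the added constant.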
